A study of Mus musculus with 6 samples.

Results

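Keratins and claudins are gene families that build the filaments and the tight junctions of epithelial cells, and they were described here in endometriosis-like lesions of mice given vehicle or niclosamide. Members were all counted gene symbols made of Krt or Cldn followed by digits only. This gave 70 of 41786 genes, 47 keratins and 23 claudins. They were sorted by textbook site of expression into 6 simple keratins, 18 keratins of stratified epithelium, 22 of hair, root sheath and nail, 1 other keratin, 18 epithelial claudins, 1 endothelial claudin and 4 other claudins. Keratin symbols with a letter after the digits, of which *Krt6a* was the only one to pass the count filter, lie outside the pattern. The keratins fell in 2 clusters, 25 on chromosome 11 between positions 99232761 and 100272565 and 22 on chromosome 15 between 101348315 and 102032026 (GRCm38.p3), and the claudins on 10 chromosomes.

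The lesions came from uterus of 6-week-old B6-GFP positive donor females, which was sutured inside C57BL/6 females onto the wall of the peritoneum; these wild-type recipients were 8 weeks old and in the same stage of the estrous cycle. After 3 days, recipients were treated daily for 3 weeks with vehicle (3 libraries) or with oral niclosamide, an anthelmintic drug, at 200 mg/kg body weight (3 libraries). Necropsy was in diestrus, and the uterine-derived tissue was taken apart from the recipient's. Vehicle 1 was RNA pooled from 4 mice and every other library came from 1 mouse, so the vehicle spread mixes a pool with single animals. No GFP transgene is among the counted symbols, so donor and recipient RNA are not separated here. In bulk tissue, fewer cells of a type and less RNA per cell cannot be told apart.

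Keratins form intermediate filaments as pairs of 1 type I and 1 type II chain, and the pair in use marks the kind of epithelium: *Krt8* with *Krt18* in simple epithelia such as the lining and glands of the uterus, *Krt5* with *Krt14* in the basal layer of stratified epithelia, *Krt1* with *Krt10* above it, and a further set in hair and nail. Claudins span the membrane and set which ions and solutes pass between cells, some by sealing the junction and some by forming pores. Most are made in epithelia, while *Cldn5* is the main claudin of endothelium.

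The libraries held 27797121 to 34797000 counted reads, of which 12019 (niclosamide 1) to 66818 (niclosamide 2) lay in the 70 members. Levels are counts relative to the scaled library total (CPM), and a count of 0 allows up to 3 counts, 0.0824 to 0.109 CPM, which covers counting error only. Of the members, 13 had no count in any library and 30 passed the count filter, and the other 27 held at most 63 counts over all 6 libraries. In edgeR's quasi-likelihood test of niclosamide against vehicle, 0 of 17364 genes passed an adjusted p of 0.05 (0%), among them 0 of the 30 members tested. The unadjusted p was under 0.05 for 1202 genes (6.92%, with 3.55% lower in niclosamide) and for 1 member, *Krt2*, which was lower. DESeq2 passed 178 genes (1.01%) and 0 members, with 3 members and 5.1% of genes at an unadjusted p under 0.05. These 3, *Krt2*, *Krt76* and *Krt86*, were all lower with niclosamide. They were given no adjusted p by DESeq2 and so could not pass. *Krt76* had 14, 12 and 9 counts with vehicle and 1, 5 and 2 with niclosamide. *Krt86* had 10, 16 and 6 counts with vehicle and 2, 3 and 2 with niclosamide. *Krt17* and *Cldn6* were given no DESeq2 p at all. The lesions were unequal in their make-up: 12 of 12 skeletal muscle markers were detected, with a summed level of 4696, 10602 and 11498 CPM in vehicle 1, 2 and 3 and 33175, 907 and 11829 CPM in niclosamide 1, 2 and 3. The 16 epithelial markers that are not members, none of them at 0, summed to 2082, 1550 and 1311 CPM with vehicle and to 431, 2703 and 728 CPM with niclosamide. Niclosamide 1, with the most muscle RNA, was lowest in 15 of these 16 and niclosamide 2, with the least, highest in 14. The part of muscle RNA in the values below was not tested.

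Simple keratins made up almost all keratin RNA of the lesions. They took between 92.6% and 96.7% of keratin counts in the 6 libraries, and all 6 members passed the count filter. *Krt8*, the type II chain of simple epithelia, was counted at 375, 186 and 130.1 CPM in vehicle 1, 2 and 3 and 66.0, 413 and 94.3 CPM in niclosamide 1, 2 and 3. Its partner *Krt18* was counted at 261, 138 and 97.6 CPM in vehicle 1, 2 and 3 and 49.1, 259 and 83.2 CPM in niclosamide 1, 2 and 3. Both were highest in vehicle 1 and niclosamide 2 and lowest in niclosamide 1, and the vehicle values lay inside the span of the niclosamide values for *Krt8* and overlapped it for *Krt18*. The 2 genes are neighbours on chromosome 15, *Krt8* at chr15:101996711-102004342 on the minus strand and *Krt18* at chr15:102028216-102032026 on the plus strand, with 23873 bases between them. *Krt8* averaged 230.3 ± 128 CPM (SD, n = 3) with vehicle and 191 ± 193 CPM with niclosamide. Its log2 fold change was -0.27 ± 0.76 (SE), with an adjusted p of 0.977 in edgeR. For *Krt18* the means were 165 ± 85.1 CPM (SD, n = 3) with vehicle and 130.3 ± 112 CPM with niclosamide and the log2 fold change -0.34 ± 0.67 (SE).

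*Krt7*, a type II chain of ducts, glands and the female reproductive tract, had 284, 192 and 114 CPM in vehicle 1, 2 and 3 and 60.8, 418 and 46.6 CPM in niclosamide 1, 2 and 3. *Krt19*, a type I chain with almost no tail domain, had 328, 144 and 98.6 CPM in vehicle 1, 2 and 3 and 59.4, 371 and 59.97 CPM in niclosamide 1, 2 and 3. In both, niclosamide 1 and 3 lay below every vehicle library and niclosamide 2 above, so the group means differed by far less than the niclosamide SD: 197 ± 85.1 CPM (SD, n = 3) with vehicle and 175 ± 210.2 CPM with niclosamide for *Krt7*, and 190.0 ± 121 CPM (SD, n = 3) with vehicle and 164 ± 179.8 CPM with niclosamide for *Krt19*. Log2 fold changes were -0.17 ± 0.87 (SE) and -0.22 ± 0.84 (SE). Per kilobase of exon, a scale that allows genes to be compared, the 4 chains were close to each other: averaged over the 6 libraries they had 129 (*Krt19*), 117 (*Krt7*), 117 (*Krt8*) and 106 (*Krt18*) CPM per kilobase, and each of the 4 was the highest keratin in at least 1 library. Reads that match processed copies of *Krt8* and *Krt18* elsewhere in the genome as well as they match the gene were not counted, and the levels are uncertain to that extent.

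The 4 chains varied less against each other than in level. The per-kilobase ratio of *Krt8* to *Krt18* was 1.12, 1.05 and 1.03 in vehicle 1, 2 and 3 and 1.04, 1.24 and 0.879 in niclosamide 1, 2 and 3, while the level of each gene ranged more than 5-fold (6.26-fold for *Krt8* and 5.31-fold for *Krt18*). The ratio of *Krt7* to *Krt8* was 0.863, 1.17 and 0.999 with vehicle and 1.05, 1.15 and 0.562 with niclosamide. Niclosamide 3 held less *Krt7* than niclosamide 1 (46.6 against 60.8 CPM) and more *Krt8* (94.3 against 66.0 CPM). Against *Epcam*, an adhesion protein of the basolateral membrane of epithelial cells that is not a member, *Krt8* stood at 1.404, 1.11 and 0.991 with vehicle and 1.42, 1.396 and 1.34 with niclosamide. *Epcam* itself was counted at 305, 191 and 149.9 CPM with vehicle and 53.0, 338 and 80.6 CPM with niclosamide, in the same order of libraries as *Krt8*.

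*Krt20* and *Krt23*, the other simple keratins, were scarce. *Krt20*, a chain of intestinal and urothelial surface cells, had 6.85, 0.934 and 2.73 CPM in vehicle 1, 2 and 3 and 0.850, 6.46 and 1.18 CPM in niclosamide 1, 2 and 3, highest in the same 2 libraries as *Krt8*. *Krt23*, a type I chain found in gland-like epithelia, had 1.97, 1.32 and 1.54 CPM in vehicle 1, 2 and 3 and 1.05, 1.39 and 2.77 CPM in niclosamide 1, 2 and 3, and was highest in niclosamide 3. Log2 fold changes were -0.30 ± 0.99 (SE) and 0.11 ± 0.44 (SE), and neither passed the test.

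**Figure D1:**
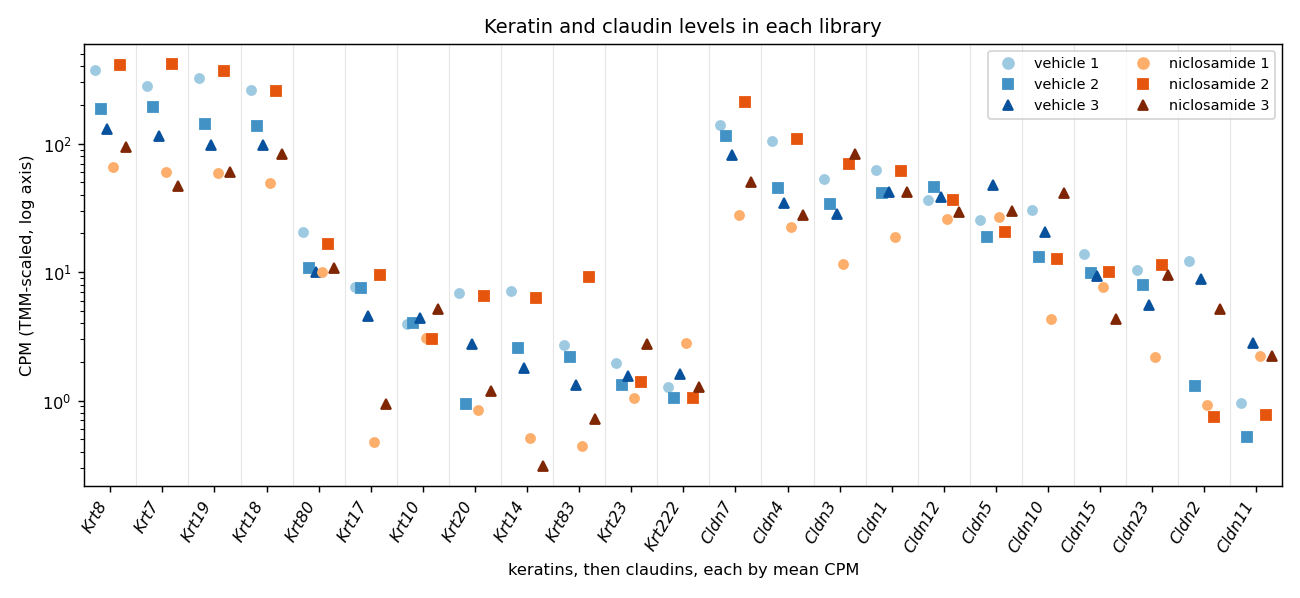
CPM (log axis) of each member with a mean of at least 1 CPM, keratins and then claudins by falling mean. Points are single libraries, vehicle in blue and niclosamide in orange, with a shape per replicate. Cldn6 is left out because it had no count in niclosamide 1 and 3. Simple keratins and the leading epithelial claudins spread widely within the niclosamide group, in most of them with niclosamide 2 on top and niclosamide 1 at the bottom. Krt10 and Cldn12 lie close together, ranging 1.71- and 1.78-fold, and Cldn5 ranges 2.57-fold with vehicle 3 on top.

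Keratins of stratified epithelium were present at low levels. Of 18 members, 8 passed the count filter, 9 others held at most 44 counts in all and 1 had none. The class summed to 45.6, 28.0 and 23.1 CPM with vehicle and 15.5, 39.0 and 18.5 CPM with niclosamide. The largest part of that was *Krt80*, a type II chain made in many epithelia at low level, with 20.7, 10.8 and 10.03 CPM in vehicle 1, 2 and 3 and 10.1, 16.6 and 10.7 CPM in niclosamide 1, 2 and 3. Its vehicle and niclosamide values overlapped (log2 fold change -0.15 ± 0.35 (SE)).

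*Krt14*, the type I chain of basal cells, had 7.18, 2.55 and 1.79 CPM in vehicle 1, 2 and 3 and 0.510, 6.27 and 0.311 CPM in niclosamide 1, 2 and 3. *Krt17*, a type I chain of basal appendage cells and of injured epithelium, had 7.69, 7.53 and 4.56 CPM in vehicle 1, 2 and 3 and 0.476, 9.52 and 0.933 CPM in niclosamide 1, 2 and 3. Both were under 1 CPM in niclosamide 1 and 3, below every vehicle library, and at vehicle level or above in niclosamide 2. Log2 fold changes were -0.69 ± 1.18 (SE) and -0.85 ± 1.06 (SE), with adjusted p-values of 0.969 and 0.965 in edgeR. Their ratio to *Krt8* was also low in these 2 libraries: per kilobase, *Krt17* to *Krt8* was 0.0245, 0.0484 and 0.0419 with vehicle and 0.00861, 0.0275 and 0.0118 with niclosamide. *Krt14* to *Krt8* was 0.0196, 0.0140 and 0.0141 with vehicle and 0.00789, 0.0155 and 0.00337 with niclosamide. *Krt5*, the usual partner of *Krt14*, held 12 counts over all libraries and *Krt15*, another basal chain, 38. *Krt14*, *Krt16* and *Krt17* have near-identical stretches and lie close together on chromosome 11, so reads shared between them were not counted. The 13 genes listed as markers of epidermis and cornified layer, 6 of them tested and 2 without a count, summed to 70.8, 49.9 and 31.1 CPM with vehicle and 34.8, 75.5 and 20.2 CPM with niclosamide. Of the 6 tested, 3 were above 0 and 3 below, and the smallest p were those of *Trp63*, *Lor* and *Sfn*. *Trp63*, the transcription factor of basal cells, had 1.79, 3.05 and 3.36 CPM with vehicle and 8.16, 0.958 and 4.39 CPM with niclosamide, highest in niclosamide 1 and lowest in niclosamide 2. *Lor*, a protein of the cornified layer, had at most 0.510 CPM. *Sfn*, an adaptor protein and the largest single part of the sum in every library, had 42.5, 32.6 and 15.1 CPM with vehicle and 12.0, 47.5 and 7.25 CPM with niclosamide. The lettered keratin *Krt6a*, a chain of injured and appendage epithelium, had 3.83, 0.439 and 0.314 CPM with vehicle and 0.136, 5.19 and 0.0311 CPM with niclosamide, highest in niclosamide 2 and vehicle 1. The part of other epithelia in these values was not tested.

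*Krt10*, a type I chain of suprabasal epidermal cells, varied less. It had 3.94, 3.98 and 4.37 CPM in vehicle 1, 2 and 3 and 3.06, 3.00 and 5.13 CPM in niclosamide 1, 2 and 3, a range of 1.71-fold, and a log2 fold change of -0.13 ± 0.31 (SE). Its partner *Krt1* held 40 counts in all. The other tested chains of the class, *Krt2*, *Krt12*, *Krt13* and *Krt16*, averaged under 1 CPM. *Krt2*, an epidermal type II chain, had 9, 13 and 18 counts with vehicle and 5, 1 and 4 with niclosamide. The groups did not overlap and the log2 fold change was -1.92 ± 0.59 (SE) (unadjusted p = 0.0152, adjusted p = 0.619, edgeR), at levels of at most 0.566 CPM. Groups without overlap were seen in 12.3% of all genes tested and in 2 of 30 members, the other being *Cldn12*; both were lower with niclosamide, as were 6.37% of all genes.

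Of the 22 hair, root sheath and nail keratins, 9 had no count, 11 held at most 41 counts and 2 were tested. *Krt83*, a type II chain of the hair cortex, had 2.70, 2.20 and 1.32 CPM in vehicle 1, 2 and 3 and 0.442, 9.12 and 0.715 CPM in niclosamide 1, 2 and 3. Niclosamide 2 stood above all other libraries, and niclosamide 1 and 3 below all vehicle libraries. The log2 fold change was 0.73 ± 1.12 (SE). *Krt83* is closely similar to *Krt81* and *Krt86*, its neighbours on chromosome 15, which held 3 and 39 counts, and reads shared by these genes were not counted. *Krt84* had at most 0.495 CPM. The 8 markers of hair follicle and nail (5 tested, 2 without a count) summed to 22.1, 23.7 and 17.2 CPM with vehicle and to 14.1, 19.6 and 21.1 with niclosamide. Niclosamide 2 was highest in *Padi3* but not in the sum. The smallest p were those of *Foxn1*, *Msx2* and *Lef1*. *Lef1* had 15.4 CPM in niclosamide 3 and 6.63 to 7.47 CPM in the others. *Foxn1* had 0.802, 1.13 and 0.503 CPM with vehicle and 0.102, 0.711 and 0.0311 CPM with niclosamide. *Msx2* had 10.2, 10.9 and 4.37 CPM with vehicle and 1.84, 7.73 and 0.684 CPM with niclosamide. Niclosamide 1 and 3 lay below all vehicle libraries in both, but not in *Lef1*, *Padi3* or *Tchh*. *Krt222*, which belongs to none of these classes, had 1.28, 1.04 and 1.60 CPM in vehicle 1, 2 and 3 and 2.79, 1.05 and 1.28 CPM in niclosamide 1, 2 and 3 and was highest in niclosamide 1, unlike any other tested member.

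Epithelial claudins took between 63.4% and 89.4% of claudin counts. Of 18 members, 10 were tested, 5 held at most 17 counts and 3 (*Cldn17*, *Cldn18* and *Cldn24*) had none. The class summed to 430, 271 and 233 CPM with vehicle and 96.6, 489 and 266 with niclosamide. *Cldn7*, which binds *Epcam* in the basolateral membrane, had the highest mean per kilobase, with 139.6, 116 and 81.3 CPM in vehicle 1, 2 and 3 and 28.0, 211 and 50.4 CPM in niclosamide 1, 2 and 3. Niclosamide 2 stood above and niclosamide 1 and 3 below all vehicle libraries, and the log2 fold change was -0.22 ± 0.73 (SE). *Cldn4*, a sealing claudin and a receptor of a clostridial enterotoxin, had 105, 45.1 and 34.8 CPM in vehicle 1, 2 and 3 and 22.6, 109 and 27.7 CPM in niclosamide 1, 2 and 3 (log2 fold change -0.21 ± 0.71 (SE)). *Cldn1*, the claudin of the epidermal barrier that is also made in many simple epithelia, had 62.9, 41.5 and 41.8 CPM in vehicle 1, 2 and 3 and 18.7, 61.1 and 42.4 CPM in niclosamide 1, 2 and 3 (log2 fold change -0.26 ± 0.42 (SE)), with niclosamide 1 alone outside the span of the vehicle libraries.

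*Cldn3* and *Cldn10* were ordered differently. *Cldn3*, a sealing claudin and the other enterotoxin receptor, had 52.7, 34.1 and 28.1 CPM in vehicle 1, 2 and 3 and 11.6, 69.0 and 82.8 CPM in niclosamide 1, 2 and 3: it was highest in niclosamide 3, where *Krt8*, *Epcam*, *Cldn4* and *Cldn7* were below all vehicle libraries. *Cldn10*, whose isoforms form pores for cations or for anions, had 30.6, 13.0 and 20.6 CPM in vehicle 1, 2 and 3 and 4.35, 12.7 and 41.6 CPM in niclosamide 1, 2 and 3, also highest in niclosamide 3 and lowest in niclosamide 1. Log2 fold changes of the groups were 0.51 ± 0.67 (SE) and -0.13 ± 0.78 (SE), and the adjusted p-values in edgeR 0.966 and 0.988. The position of niclosamide 3 was clearest in ratios within a library. Per kilobase, *Cldn3* to *Epcam* was 0.282, 0.292 and 0.306 in vehicle 1, 2 and 3, 0.357 and 0.333 in niclosamide 1 and 2 and 1.68 in niclosamide 3. *Cldn10* to *Epcam* was 0.143, 0.0975 and 0.196 with vehicle, 0.117 and 0.0535 in niclosamide 1 and 2 and 0.735 in niclosamide 3. *Cldn7* to *Epcam* stayed between 0.649 and 0.886 in all 6 libraries, and *Cldn4* to *Epcam* between 0.264 and 0.486. Further epithelial claudins were also high in niclosamide 3 for its keratin level: *Cldn23* to *Krt8* was 0.0978 there and 0.0267 to 0.0419 in the other libraries, and *Cldn1* to *Krt8* was 0.2502 there and 0.0822 to 0.179 in the others. *Cldn3* was the highest claudin of niclosamide 3, with 65.5 CPM per kilobase against 34.7 for *Cldn7*, whereas *Cldn7* was highest in each of the other 5. Summed per kilobase, epithelial claudins stood at 0.312 to 0.474 of simple keratins in 5 libraries and at 0.895 in niclosamide 3. This is 1 animal, and the ratios have no replicate within it.

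**Figure D2:**
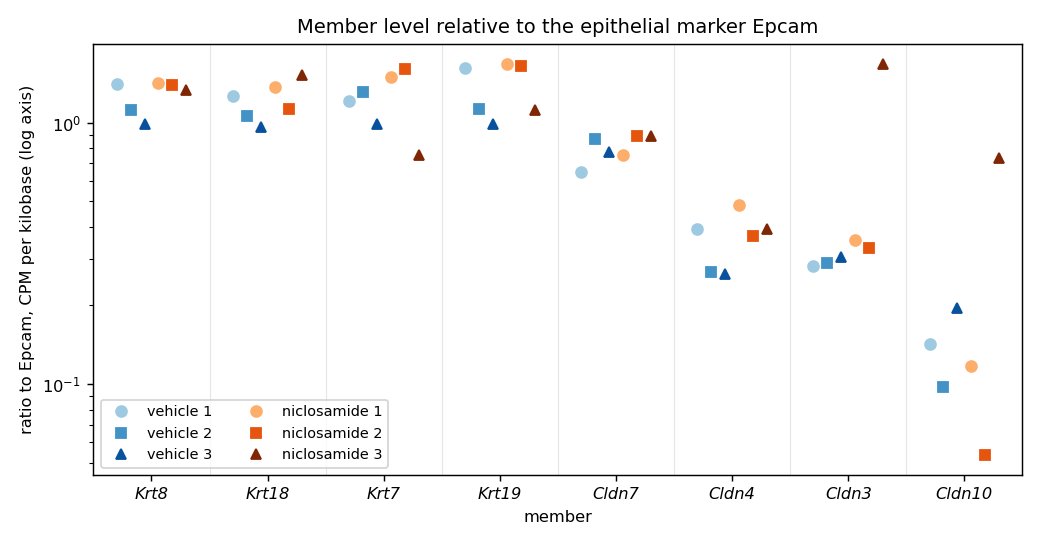
Per-kilobase ratio of 8 members to Epcam in each of the 6 libraries (log axis), 1 point per library. Krt8, Krt18 and Cldn7 range 1.44-, 1.59- and 1.37-fold over the libraries, and Krt19, Cldn4 and Krt7 1.71-, 1.84- and 2.14-fold. Krt7 is lowest in niclosamide 3, at 0.751. Cldn3 at 1.68 and Cldn10 at 0.735 stand apart in niclosamide 3, above all other libraries.

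The promoters of this group are shown because *Cldn3* and *Cldn4* are adjacent genes, transcribed away from each other from starts 39279 bases apart on chromosome 5 (*Cldn4* at chr5:134945123-134946934 on the minus strand, *Cldn3* at chr5:134986214-134987476 on the plus strand), and differed in niclosamide 3: per kilobase, *Cldn3* to *Cldn4* was 0.720, 1.08 and 1.16 with vehicle and 0.735, 0.906 and 4.29 with niclosamide. *Cldn10*, which stood apart with *Cldn3*, and *Cldn7* and *Krt18*, which did not, are set beside them. Sequences are the bases before the RefSeq start site (GRCm38.p6) that lie outside annotated exons, 5′ to 3′ on the gene's strand. Capitals mark matches on either strand to 6 motifs: GGGCGG (SP and KLF factors), CACCTG (the E-box of SNAI and ZEB repressors), AACNNGTT (grainyhead-like factors), TGTTTAC (forkhead factors), TGACTCA (AP-1), and the estrogen response element, GGTCA and TGACC set 3 bases apart.
*Cldn3*, chr5:134985964-134986213, plus strand: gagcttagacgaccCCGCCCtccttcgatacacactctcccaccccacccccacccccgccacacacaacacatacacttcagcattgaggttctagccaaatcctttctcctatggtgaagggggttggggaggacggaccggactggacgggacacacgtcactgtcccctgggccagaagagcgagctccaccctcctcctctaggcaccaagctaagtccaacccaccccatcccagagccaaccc
*Cldn4*, chr5:134946935-134947184, minus strand: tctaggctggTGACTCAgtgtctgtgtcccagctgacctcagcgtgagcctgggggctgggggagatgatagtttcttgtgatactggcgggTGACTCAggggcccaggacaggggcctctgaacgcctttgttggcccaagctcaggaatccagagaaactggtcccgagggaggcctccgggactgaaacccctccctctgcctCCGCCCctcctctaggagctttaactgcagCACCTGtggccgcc
*Cldn10*, chr14:118787621-118787870, plus strand: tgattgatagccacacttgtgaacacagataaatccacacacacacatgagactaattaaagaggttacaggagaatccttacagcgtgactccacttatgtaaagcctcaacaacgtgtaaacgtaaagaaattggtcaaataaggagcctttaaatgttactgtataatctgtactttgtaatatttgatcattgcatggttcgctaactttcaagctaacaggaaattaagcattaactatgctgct
*Cldn7*, chr11:69964529-69964778, plus strand: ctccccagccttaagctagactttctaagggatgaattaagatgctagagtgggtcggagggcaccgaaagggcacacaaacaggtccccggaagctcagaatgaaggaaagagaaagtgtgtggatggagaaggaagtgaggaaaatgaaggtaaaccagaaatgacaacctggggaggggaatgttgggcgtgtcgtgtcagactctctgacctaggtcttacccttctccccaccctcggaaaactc
*Krt18*, chr15:102027966-102028179, plus strand: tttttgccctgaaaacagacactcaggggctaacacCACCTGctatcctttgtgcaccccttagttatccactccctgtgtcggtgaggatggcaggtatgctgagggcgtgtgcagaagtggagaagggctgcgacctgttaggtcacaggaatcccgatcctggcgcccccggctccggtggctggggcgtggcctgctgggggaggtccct
*Cldn3* held 1 GGGCGG match, and *Cldn4* held 2 TGACTCA, 1 CACCTG and 1 GGGCGG match. *Krt18* had 1 CACCTG match, and the stretches of *Cldn10* and *Cldn7* held none of the 6 motifs. No matches overlapped. *Cldn10* has a second annotated start 67079 bases downstream, and counts per gene do not separate its isoforms. Over windows of 300 bases (250 before the start and 50 after), 18 of 24 members with a mean of at least 1 CPM had an entry. CACCTG was in 8 of these 18 and in 20.03% of all 27025 promoters, GGGCGG in 8 and in 35.9%, TGACTCA in 2 and in 5.17%, and AACNNGTT in 1 and in 4.19%. Over all 53 members with an entry, CACCTG was in 17 (32.1%), GGGCGG in 10 (18.9%), TGACTCA in 2 and AACNNGTT in 2. TGTTTAC (3.55% of all) and the estrogen response element (0.0666%) were in 0 of the 53. A match is a string of letters in a window and no record of binding.

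The remaining epithelial claudins had fewer reads. *Cldn15*, a cation pore best known from the intestine, had 13.7, 9.89 and 9.27 CPM in vehicle 1, 2 and 3 and 7.72, 10.04 and 4.29 CPM in niclosamide 1, 2 and 3 (log2 fold change -0.58 ± 0.35 (SE)). *Cldn23* had 10.3, 7.97 and 5.59 CPM in vehicle 1, 2 and 3 and 2.18, 11.3 and 9.46 CPM in niclosamide 1, 2 and 3, lowest in niclosamide 1 and at vehicle level in niclosamide 3. *Cldn2*, a pore for cations and water in leaky epithelia, varied within the vehicle group as well: it had 12.1, 1.29 and 8.86 CPM in vehicle 1, 2 and 3 and 0.918, 0.742 and 5.13 CPM in niclosamide 1, 2 and 3, with vehicle 2 at the level of niclosamide 1 and 2. Its log2 fold change was -1.71 ± 1.04 (SE) (adjusted p = 0.854, edgeR), and ran from -3.15 without niclosamide 3 to -1.16 without vehicle 1. *Cldn6*, a claudin of embryonic epithelia, had 37, 52 and 32 counts with vehicle, 75 in niclosamide 2 and 0 in niclosamide 1 and 3. Those zeros allow up to 0.102 and 0.0933 CPM, against 1.26 ± 0.225 CPM (SD, n = 3) with vehicle. *Cldn9* lies 137 bases from *Cldn6* and held 3 counts. *Cldn8* had at most 1.87 CPM, in niclosamide 3.

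The endothelial claudin did not follow this order of libraries. *Cldn5* had 25.6, 18.7 and 48.1 CPM in vehicle 1, 2 and 3 and 26.6, 20.4 and 29.7 CPM in niclosamide 1, 2 and 3, highest in vehicle 3, with overlapping groups (30.8 ± 15.3 CPM (SD, n = 3) with vehicle and 25.6 ± 4.76 CPM with niclosamide; log2 fold change -0.27 ± 0.36 (SE)). It took between 3.73% and 17.5% of claudin counts, the largest share in niclosamide 1, where epithelial claudins were lowest. *Cdh5*, the cadherin of endothelial junctions, had 72.2, 87.6 and 97.2 CPM with vehicle and 84.4, 77.2 and 115 CPM with niclosamide, and the ratio of *Cldn5* to *Cdh5* per kilobase was 1.01, 0.609 and 1.41 with vehicle and 0.9005, 0.753 and 0.737 with niclosamide. *Cdh5* was taken as the junction partner and not for its p. The 14 endothelial markers that are not members were all tested, 4 above 0 and 10 below, and summed to 810, 861 and 1091 CPM with vehicle and 907, 748 and 881 CPM with niclosamide. *Vwf*, the clotting protein von Willebrand factor, had the smallest p of these, with 79.4, 82.7 and 110.4 CPM with vehicle and 76.2, 37.0 and 39.6 CPM with niclosamide (log2 fold change -0.84 ± 0.31 (SE), unadjusted p = 0.0346, adjusted p = 0.676, edgeR), followed by the receptors *Eng* (-0.14 ± 0.12 (SE)) and *Kdr* (-0.17 ± 0.15 (SE)). The 6 lymphatic markers summed to 245 to 453 CPM with vehicle and 328 to 392 CPM with niclosamide. *Cldn5* and *Cldn7* are annotated a second time on a sequence outside the chromosomes, and reads that aligned to both copies were not counted, so the level of both may be understated.

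*Cldn12*, a widely made claudin that lacks the usual binding motif for scaffold proteins, had the smallest standard error of the fold change among the tested members. It had 36.6, 46.2 and 38.5 CPM in vehicle 1, 2 and 3 and 26.0, 36.5 and 29.2 CPM in niclosamide 1, 2 and 3, and all 3 niclosamide libraries lay below the lowest vehicle library, niclosamide 2 only just. The means were 40.4 ± 5.09 CPM (SD, n = 3) with vehicle and 30.5 ± 5.40 CPM with niclosamide and the log2 fold change -0.40 ± 0.17 (SE) (unadjusted p = 0.0548, adjusted p = 0.742, edgeR). *Cldn11*, the claudin of myelin and of Sertoli cells, had 0.948, 0.522 and 2.83 CPM in vehicle 1, 2 and 3 and 2.21, 0.773 and 2.24 CPM in niclosamide 1, 2 and 3. The 6 glial and Schwann cell markers summed to 56.8 to 65.0 CPM with vehicle and 41.1 to 76.1 CPM with niclosamide. *Cldn19* held 63 counts and *Cldn13* held 7.

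Set against all genes, the 30 tested members were more variable and lay lower. Their median log2 fold change was -0.24 and 23 were below 0, against a median of 0.02 and 46.3% below 0 over all genes tested. Their adjusted p-values ran from 0.619 upward. The median SE of the fold change was 0.75 in the members and 0.25 in all genes. Niclosamide 1 was the lowest library in 17 of 30 members (23.8% of all genes) and niclosamide 2 the highest in 11 (17.8%). In 11 members, niclosamide 2 lay above and niclosamide 1 below all vehicle libraries, as in 8.40% of all genes: *Krt7*, *Krt8*, *Krt17*, *Krt19*, *Krt83*, *Krt84*, *Cldn3*, *Cldn4*, *Cldn6*, *Cldn7* and *Cldn23*. In 9 of them (3.82% of all genes) niclosamide 3 was also below, the exceptions being *Cldn23* and *Cldn3*.

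**Figure D3:**
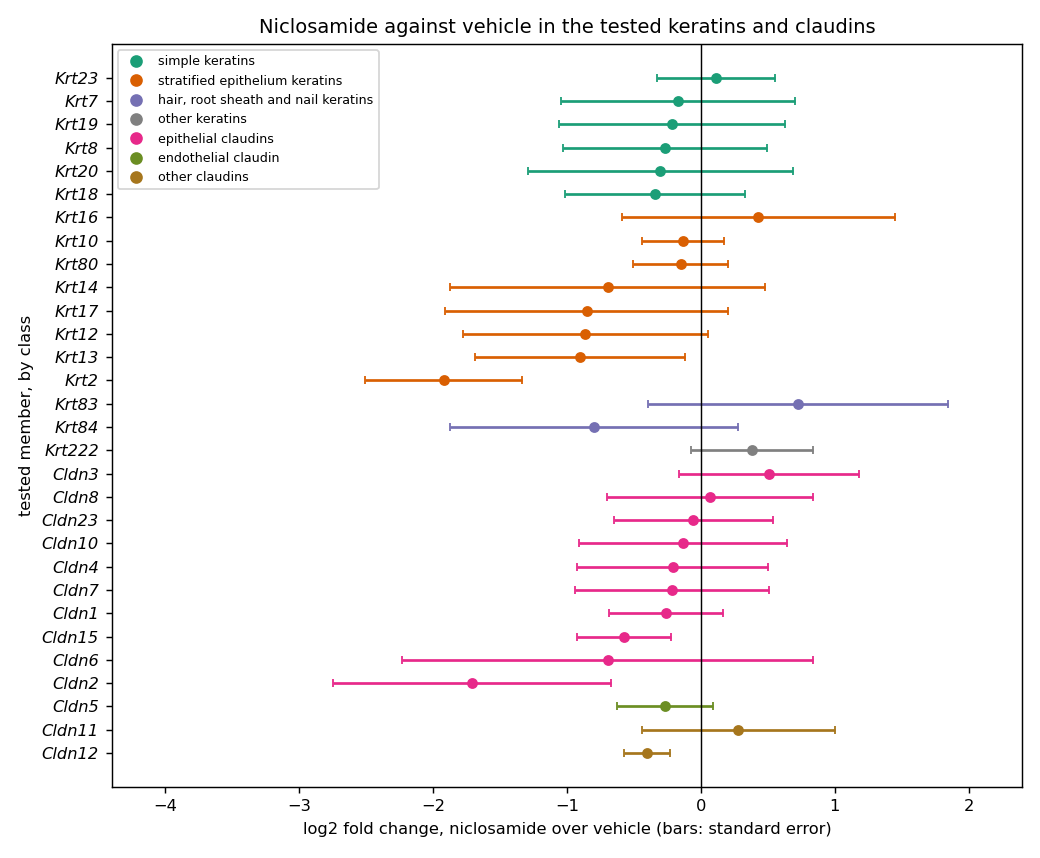
Log2 fold change of niclosamide over vehicle for the 30 tested members, by class. Points are edgeR estimates from 3 libraries a group and bars 1 SE. Of the 30, 23 lie left of 0, and most bars cross 0.

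The comparison depended on single libraries, in size most on niclosamide 2 and in sign more on others. Followed here were 25 members, those with a mean of at least 1 CPM and *Krt2*. The sign turned in 11 of them without niclosamide 1, 10 without vehicle 1 and 7 without niclosamide 3. It turned in 2 without niclosamide 2, 2 without vehicle 2 and 1 without vehicle 3. Without niclosamide 2, 16 of 33 tested members had an unadjusted p under 0.05 in edgeR, all lower with niclosamide, against 10.1% of all genes (6.31% lower), and the median log2 fold change of the members was -1.31. Without vehicle 1 that median was 0.17, and without niclosamide 1 it was 0.01. None passed the adjusted threshold, the smallest adjusted p being 0.128, that of *Cldn6*, which had no count in niclosamide 1 and 3. The 16 include *Krt76* and *Krt86*, which failed the count filter over all 6 libraries. Without vehicle 1, 2 and 3 there were 1, 1 and 2 such members (5.38%, 4.55% and 3.86% of all genes), and without niclosamide 1 and 3 there were 4 and 4 (5.61% and 10.8%). Without niclosamide 2 the log2 fold change was -1.89 for *Krt7*, -1.69 for *Krt19*, -1.54 for *Krt8*, -1.34 for *Krt18*, -3.23 for *Krt17*, -1.53 for *Cldn7* and -1.31 for *Cldn4*. It was -1.84 for *Krt83*, whose sign turned, and -3.21 for *Krt84*. For *Cldn3* it was 0.29 and for *Cldn5* -0.14. With only 2 niclosamide libraries left, this is a difference between these animals. Niclosamide 2 was the highest library in 11 of 30 members, so leaving it out lowers their niclosamide level by construction. Skeletal muscle markers, highest in niclosamide 1, summed to 907 CPM in the library left out, and their part was not tested.

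**Figure D4:**
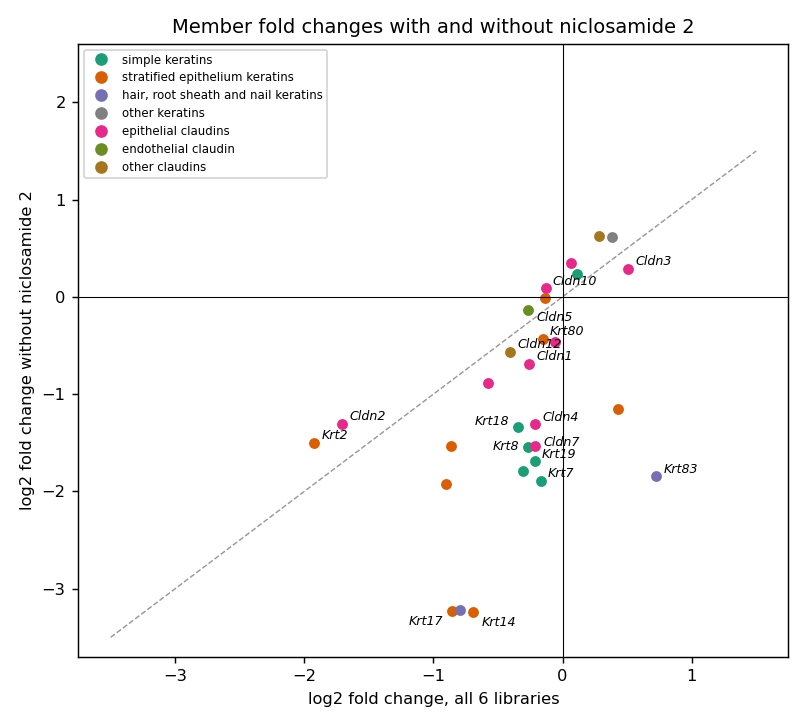
Log2 fold change of each tested member over all 6 libraries (x axis) and without niclosamide 2 (y axis), 1 point per gene, coloured by class. The dashed line marks equal values. Of the 30 tested members 29 are drawn; Cldn6 is left out because the remaining niclosamide libraries hold no count of it. Far below the line lie Krt83, Krt84, Krt13, Krt14, Krt16, Krt17, Cldn4, Cldn7 and the simple keratins other than Krt23. Cldn3, Cldn5 and Cldn12 stay near it.

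The genes that work with keratins and claudins had small median shifts, and none passed the adjusted threshold. Of 23 tight junction partners, 0 passed, 3 were above 0 and 20 below (median log2 fold change -0.19); niclosamide 1 was lowest in 16 and niclosamide 2 highest in 14. *Pard3*, a polarity scaffold, had the smallest p of the list (log2 fold change -0.33 ± 0.16 (SE)), followed by *Ildr1*, an angulin of tricellular junctions (log2 fold change 0.66 ± 0.36 (SE)), and *Mpp5*, a partner of the Crumbs complex (log2 fold change 0.24 ± 0.16 (SE)). Of 16 tested desmosome and keratin linker genes, 4 were above 0 and 12 below (median -0.20), led by *Pkp2* (log2 fold change -0.50 ± 0.44 (SE)), *Evpl* (log2 fold change -0.51 ± 0.56 (SE)) and *Jup* (log2 fold change -0.35 ± 0.38 (SE)), a plakophilin, a plakin and plakoglobin, which tie keratin filaments to desmosomes. Of 18 tested regulators of epithelial transcription and splicing, 4 were above 0 and 14 below (median -0.23), and *Foxa2*, the forkhead factor of uterine glands, was the 1 gene with an unadjusted p under 0.05.

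*Foxa2* had 3.68, 2.28 and 1.70 CPM with vehicle and 0.476, 1.05 and 1.12 CPM with niclosamide, with no overlap between the groups and a log2 fold change of -1.52 ± 0.47 (SE) (unadjusted p = 0.0162, adjusted p = 0.623, edgeR). *Elf5*, an epithelial ETS factor with the next smallest p, had 4.59, 3.57 and 5.03 CPM with vehicle and 0.0680, 3.37 and 1.43 CPM with niclosamide. In the epithelial marker list 16 of 16 genes were below 0, with a median of -0.36. After *Foxa2*, its smallest p were those of *Spint2*, a protease inhibitor, with 244, 147 and 174 CPM with vehicle and 71.0, 213 and 116 CPM with niclosamide, and *Esrp1*, a splicing factor, with 55.0, 55.6 and 35.9 CPM with vehicle and 10.3, 66.2 and 25.3 CPM with niclosamide. Among 8 repressors of epithelial genes, 7 were below 0 and 1 above (median -0.21). *Twist1* had 20.8, 22.8 and 23.6 CPM with vehicle and 15.4, 17.0 and 15.1 CPM with niclosamide (log2 fold change -0.50 ± 0.14 (SE), unadjusted p = 0.00887, adjusted p = 0.599, edgeR). *Zeb2* had 129, 139 and 141 CPM with vehicle and 236, 163 and 156 CPM with niclosamide (log2 fold change 0.44 ± 0.19 (SE), adjusted p = 0.741, edgeR). The groups did not overlap in either, lower for *Twist1* and higher for *Zeb2*. Groups without overlap were seen in 12.3% of all genes tested, and these genes, like *Foxa2*, were named for their small p. Among 11 tested other intermediate filament genes, 4 were above 0 and 7 below (median -0.02). *Vim*, the filament of mesenchymal and immune cells, had 1187, 759 and 1013 CPM with vehicle and 1355, 1341 and 1209.8 CPM with niclosamide, and *Nefh*, a neurofilament, 0.802, 0.961 and 0.974 CPM with vehicle and 1.63, 1.70 and 1.24 CPM with niclosamide, the 1 gene of the list with an unadjusted p under 0.05. The groups did not overlap in *Vim* and *Nefh* either, both higher with niclosamide. *Krt8* per kilobase stood at 0.321, 0.249 and 0.130 of *Vim* with vehicle and 0.0495, 0.313 and 0.0792 with niclosamide.

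Other cells of a uterine graft on the peritoneal wall can make some of these genes, mesothelium above all, which also makes *Krt8*, *Krt18*, *Krt19* and *Cldn15*. The 10 mesothelial markers were all tested, with 7 below 0, and summed to 777, 581 and 518 CPM with vehicle and 355, 669 and 377 CPM with niclosamide. *Ezr* and *Aldh1a2* together made up most of this sum in every library. Niclosamide 1 lay above vehicle 2 and 3 in *Msln*, *Upk3b*, *Upk1b*, *Lrrn4*, *Muc16*, *Bnc1* and *Gpm6a*. In *Wt1*, *Ezr* and *Aldh1a2* it did not. *Aldh1a2*, which makes retinoic acid, had the smallest p, with 199.7, 306 and 199 CPM with vehicle and 72.8, 152 and 89.8 CPM with niclosamide. *Muc16*, a surface mucin, had 7.37, 1.26 and 2.61 CPM with vehicle and 9.96, 11.5 and 1.12 CPM with niclosamide, and *Upk3b*, an uroplakin, 57.1, 3.27 and 7.04 CPM with vehicle and 13.9, 20.4 and 3.08 CPM with niclosamide. Niclosamide 2 was the highest library in 3 of the 10 and niclosamide 1 the lowest in 2. The 8 smooth muscle markers were all below 0, 7 of them at an unadjusted p under 0.05 in edgeR, where 3.55% of all genes were lower. None passed the adjusted threshold (smallest adjusted p = 0.603, edgeR). They summed to 8469, 5739 and 7621 CPM with vehicle and 2681, 1938 and 4789 CPM with niclosamide. The part of either list in the keratin and claudin values was not tested.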

How the data were processed

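Lesion RNA was sequenced as 3 vehicle and 3 niclosamide TruSeq Stranded libraries made of 1 µg total RNA, vehicle 1 from a pool of 4 mice. Values were deposited as unscaled counts of reads for each symbol. Per the file headers, the authors counted exon reads with featureCounts 1.4.6-p4, reverse-stranded, on STAR alignments against GRCm38.p3. The headers show no option for reads with several alignments, so by that counter's defaults they were left out. STAR 2.4.2a, Trimmomatic 0.33 and bcl2fastq 1.8.4 are named in the submitters' processing notes. Total counts ran from 27797121 to 34797000.

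From these counts, edgeR 4.0.16 in R 4.3.3 was fitted over all genes kept by filterByExpr (minimum count 10, minimum total 15), with TMM scaling, robust quasi-likelihood dispersions, group as the only term and Benjamini-Hochberg adjustment over 17364 genes at a threshold of 0.05. CPM uses TMM-scaled library sizes. Levels per kilobase divide it by exon length in units of 1000 bases, for Cldn5 and Cldn7 by the length on the chromosome only. The procedure was tested on simulated data. Members, classes and the marker and partner lists were chosen with earlier results of these data known, so no test over a list was made. Members with a mean of at least 1 CPM were named with all values, and up to 3 genes with the smallest p from a list. Outside this rule, Epcam and Cdh5 served as reference genes of ratios. The mesothelial, hair and nail markers were also named, for the make-up of their sums. A check of same-numbered libraries found them no more alike than other pairs, which does not exclude a shared batch. Alternatives were RLE and upper quartile scaling, DESeq2 1.42.0, limma-voom (limma 3.58.1) with and without quality weights, no filter or a stricter filter (1 CPM in 3 libraries), an adjusted p of 0.10, a replicate block, and each library left out. Class sums were also computed with plain library totals, per kilobase, with lettered keratins and without Krt23. Promoter sequences are those of RefSeq on GRCm38.p6, found for 53 of 70 members.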

Additional observations from a re-analysis of the deposited data

How the results depend on the processing

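No member passed the adjusted threshold under any alternative. Over all genes, 0 passed in the fit reported, 178 with DESeq2 and 1 without a filter. The number of members at an unadjusted p under 0.05 was 1 (6.92% of all genes); it was 2 of 30 with upper quartile scaling (6.80%), 3 of 55 with DESeq2 (5.1%), 3 of 30 with limma-voom with quality weights (7.57%), 8 of 57 without a filter (4.96%), 0 of 24 with the stricter filter (7.16%), 2 of 30 with the replicate number as a block (6.57%) and 1 to 16 with 1 library left out (3.86% to 10.8%); the 16 of 33 came without niclosamide 2 (10.1%). Same-numbered libraries correlated at -0.085, -0.087 and 0.266 in their deviations from the group means, and differently numbered ones at -0.357 to 0.36. With 3 libraries a group, this cannot show whether same-numbered libraries shared a batch. The hair, root sheath and nail class had a log2 ratio of group means of 0.32, which ran from -1.86 to 0.83 with 1 library left out, lowest without niclosamide 2. The log2 fold change of Krt80 turned to 0.094 with voom weights, that of Krt83 to -0.44 with voom, -0.25 with weights and -0.45 with the block, and that of Krt6a to -1.25, -0.77 and -1.43; Upk3b turned to 0.25 with weights. The cause was not tested. With 1 library left out, the log2 fold change ran from -0.13 to 1.24 for Cldn11, -1.31 to 0.41 for Cldn4, -0.46 to 0.38 for Cldn23, -1.53 to 0.22 for Cldn7, -0.17 to 0.62 for Krt222, -1.79 to 0.63 for Krt20, -0.38 to 0.37 for Krt23, -1.69 to 0.43 for Krt19, -3.24 to 0.12 for Krt14, -1.31 to 0.33 for Cldn10, -0.43 to 0.26 for Krt80, -1.89 to 0.30 for Krt7, -1.84 to 1.24 for Krt83, -1.54 to 0.28 for Krt8, -1.34 to 0.15 for Krt18, -0.53 to 0.21 for Cldn5, -0.69 to 0.081 for Cldn1, -0.073 to 0.21 for Cdh5, -4.16 to 2.23 for Krt6a, -0.039 to 1.18 for Trp63, -1.66 to 0.0030 for Sfn and -1.43 to 1.28 for Upk3b. The other described members kept their sign. Depth limits members near 0.109 CPM and below, where a library holds about 3 counts.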
